A study of Mus musculus with 6 samples.

Results

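The genes described here are YAP and TAZ, the DNA-binding partner TEAD1 and genes that are widely used as readouts of their activity, measured in mouse epidermis. The members were chosen by symbol, as Yap1, Wwtr1 (the gene of TAZ), Tead1, Ctgf (Ccn2 in current nomenclature), Cyr61 (Ccn1), Ankrd1, Amotl2, Ajuba, Lats2 and Axl. All 10 were found among the 41214 gene identifiers counted, and 9 of them were among the 13704 genes abundant enough to be tested. Ankrd1 was not. The libraries hold polyadenylated RNA of epidermis, taken with trypsin from C57BL/6 pups aged 4 days after birth. There were 3 libraries of the ARPC4 ko genotype, labelled hom in their titles, and 3 of the wt genotype. The sources used here do not state which promoter drove the deletion, which part of Arpc4 was removed, or whether each library came from 1 animal. The spread behind each p-value is therefore that of these libraries and may be technical. The titles of replicates 1 and 2 of both genotypes carry I or II and a date, and those of replicate 3 carry the mark Tryp and no date. The libraries are called dated and undated below, as names only, since the labels do not say whether these marks stand for days, litters or protocols.

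YAP and TAZ are transcriptional coactivators that have no DNA-binding domain of their own and reach their target genes through the TEAD factors. The Hippo kinases LATS1 and LATS2 phosphorylate them, which keeps them in the cytoplasm and promotes their degradation. Actin filaments, cell spreading and tension favour their nuclear entry, and in epidermis nuclear YAP is known mainly from the basal layer. The Arp2/3 complex, of which ARPC4 is a subunit, nucleates branched actin filaments. Because YAP and TAZ are controlled mostly by phosphorylation, location and stability, the mRNA levels given here for the effectors do not report their activity, and the targets are the usual transcript readout.

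Counts assigned to genes summed to between 17561294 and 20745246 in the 3 ARPC4 ko libraries and to between 19532675 and 22659511 in the 3 wt libraries. Levels are given as CPM, which are reads of a gene scaled to library size, here after correction by the trimmed mean of M values (TMM). Arpc4 itself was measured at 67.5, 65.6 and 64.5 CPM in ARPC4 ko replicates 1 to 3, against 72.5, 82.5 and 73.1 CPM in wt replicates 1 to 3. Every ARPC4 ko library lay below every wt library, as in 8.03% of all genes tested. The log2 fold change of -0.21 (SE 0.10) was not called (adjusted p = 0.469, edgeR). Without knowing the deleted exons, this level cannot serve as a check of the genotype. The summed markers of suprabasal keratinocytes lay between 81329 and 152589 CPM in ARPC4 ko and between 79541 and 132030 CPM in wt. Those of basal keratinocytes ran from 3284 to 11707 CPM in ARPC4 ko and from 2080 to 10159.5 CPM in wt, so the libraries differed several-fold in basal transcripts within each genotype. Fewer cells of a type and less RNA per cell cannot be told apart in these bulk samples.

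The comparison of ARPC4 ko with wt asked whether the transcripts of YAP, TAZ, TEAD1 and their targets differed between the genotypes. With edgeR 0 of the 9 members tested passed an adjusted p of 0.05 over all genes (quasi-likelihood test, Benjamini-Hochberg), and DESeq2 also called 0. 1 member, Axl, reached an unadjusted p under 0.05 with edgeR, on the higher side. Over all 13704 genes 30 were higher and 0 lower past the threshold, which is 0.219% of those tested, and 13.2% had an unadjusted p under 0.05. DESeq2 called 4.03% of genes, 2.69% as higher and 1.33% as lower. With so low a background, 0 of 9 is not a result about the members, and the intervals below say what sizes of change the data allow. Yap1 had nearly equal means in both genotypes, Amotl2, Ctgf and Tead1 had lower means in ARPC4 ko without passing the test, and Axl had a mean 1.74-fold higher in ARPC4 ko, also without passing it.

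**Figure D1:**
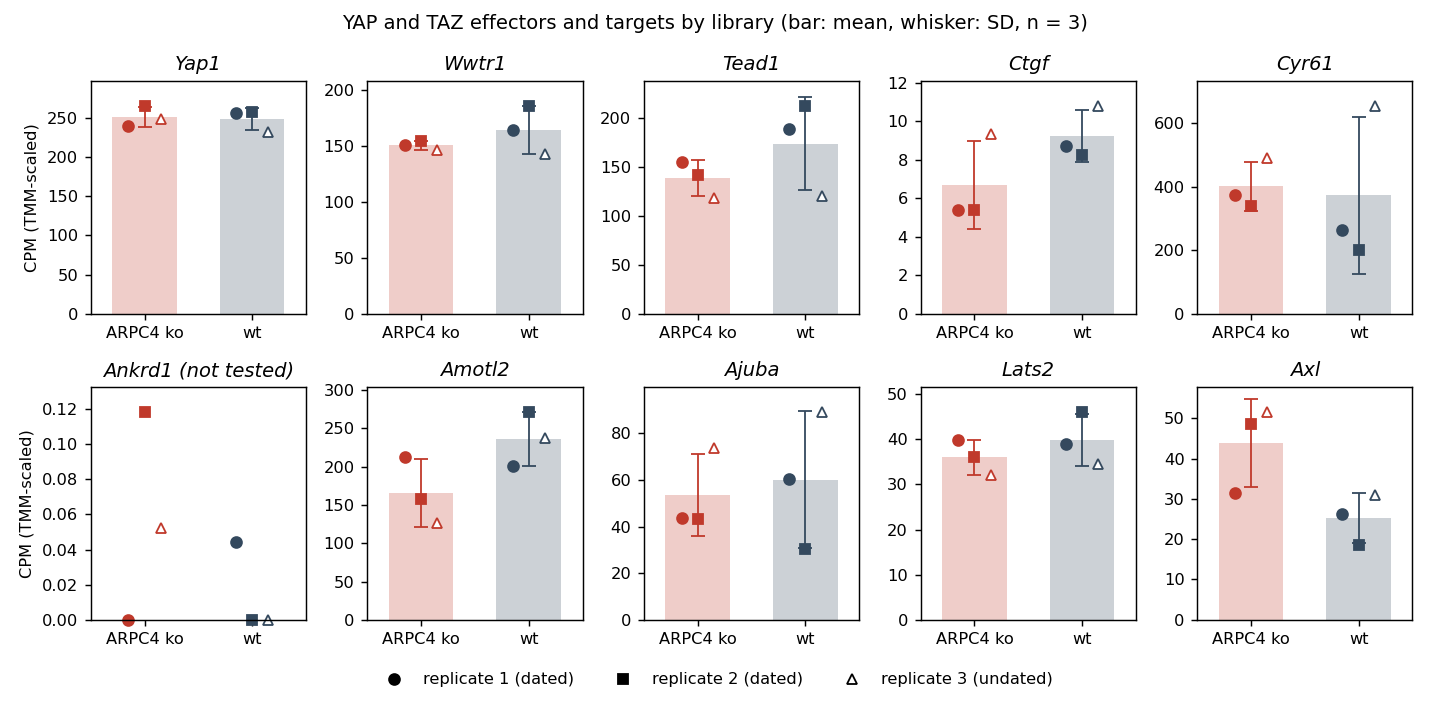
CPM of the 10 members in each library, with ARPC4 ko on the left and wt on the right of each panel. Bars and whiskers are the mean and SD of 3 libraries (none are drawn for Ankrd1, at 0 to 2 reads), filled marks are dated and open marks undated libraries, and Axl is the gene whose 3 ARPC4 ko libraries, at 31.4 to 51.5 CPM, all lie above the 3 wt libraries, at 18.5 to 30.8 CPM.

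Yap1 (ENSMUSG00000053110, chromosome 9, 7931999 to 8004596, minus strand, mm10) was the steadiest member. It was measured at 239.8, 265.5 and 248.6 CPM in ARPC4 ko replicates 1 to 3, against 256.2, 257.3 and 232.6 CPM in wt replicates 1 to 3. The groups overlapped, with means of 251.3 ± 13.1 CPM in ARPC4 ko and 248.7 ± 13.9 CPM in wt (SD, n = 3 each). The highest library was 1.14 times the lowest, the smallest such ratio among the 9 members tested. The log2 fold change of 0.01 (SE 0.12, adjusted p = 0.977, edgeR) had a 95% interval from -0.27 to 0.30, so the data allow a fold between 0.83 and 1.23. The sign of so small a value is not settled, and it turned to -0.0040 with DESeq2 size factors.

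Wwtr1 (ENSMUSG00000027803, chromosome 3, 57455649 to 57575910, minus strand) encodes TAZ, the paralog of YAP. Its levels were 151.1, 154.3 and 146.4 CPM in ARPC4 ko replicates 1 to 3, against 164.6, 185.9 and 142.9 CPM in wt replicates 1 to 3. The undated wt library was the lowest of all 6 and the dated wt libraries were the highest, so the groups overlapped. The log2 fold change was -0.13 (SE 0.13, adjusted p = 0.776, edgeR), with a 95% interval that allows a fold between 0.74 and 1.14.

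Tead1 (ENSMUSG00000055320, chromosome 7, 112679318 to 112906807, plus strand) encodes a TEAD factor, through which YAP and TAZ bind DNA. It was measured at 155.1, 141.3 and 118.1 CPM in ARPC4 ko replicates 1 to 3, against 187.9, 211.8 and 120.2 CPM in wt replicates 1 to 3. Both dated wt libraries lay above all ARPC4 ko libraries, and the undated libraries of both genotypes were nearly equal and the lowest of the 6. Over all libraries the log2 fold change was -0.33 (SE 0.23, adjusted p = 0.631, edgeR). It was -0.46 among the 4 dated libraries (adjusted p = 0.188, edgeR) and -0.03 between the undated libraries, 1 per genotype, for which there is no test. Of the other TEAD genes, which share the DNA-binding domain, Tead3 stood at 132.0 ± 26.8 CPM in ARPC4 ko and 130.4 ± 25.9 CPM in wt. Tead4 stood at 64.3 ± 11.9 CPM in ARPC4 ko and 83.2 ± 29.4 CPM in wt (log2 fold change -0.37, SE 0.28, adjusted p = 0.669, edgeR). Tead2 was low, at 4.74 ± 0.420 CPM in ARPC4 ko and 4.97 ± 0.580 CPM in wt.

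The targets are read through TEAD sites, and the letters most often used for such a site are GGAATG, or CATTCC when read on the other strand. RefSeq promoter windows on GRCm38.p6, from 250 bases before to 50 bases after an annotated start, were found for 8 of the 10 members. Ctgf and Tead1 had no entry. GGAATG was searched on both strands, and no match shared bases with the TATAAA box of Cyr61, 25 bases before its start (8.32% of all windows hold TATAAA). All 8 of these genes held it in at least 1 window, against 14.5% of the 10550 tested genes with an entry and 14.7% of all 32851 windows. Among the other pathway genes listed below, 3 of 12 core kinases and scaffolds held it, as did 4 of 7 other TEADs and cofactors, 4 of 9 junction and polarity regulators, 2 of 10 other signature genes and 1 of 4 other readouts. The AP-1 letters TGANTCA, which 7.81% of all windows hold on either strand, were in none of the members' windows. A match or its lack is a description of the letters only. The 250 bases before the start are shown for 3 targets with different behaviour across the libraries, Cyr61, Ajuba and Axl. They run 5′ to 3′ on the gene's strand, with the motif in capitals. They cover chr3:145649986-145650235 for Cyr61, chr14:54577662-54577911 for Ajuba and chr7:25788734-25788983 for Axl, all on the minus strand of GRCm38.p6.
Cyr61: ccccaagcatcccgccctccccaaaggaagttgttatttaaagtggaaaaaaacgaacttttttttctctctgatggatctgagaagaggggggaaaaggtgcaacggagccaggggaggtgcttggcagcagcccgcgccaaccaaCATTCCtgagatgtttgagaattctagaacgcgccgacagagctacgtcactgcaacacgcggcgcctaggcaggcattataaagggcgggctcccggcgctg
Ajuba: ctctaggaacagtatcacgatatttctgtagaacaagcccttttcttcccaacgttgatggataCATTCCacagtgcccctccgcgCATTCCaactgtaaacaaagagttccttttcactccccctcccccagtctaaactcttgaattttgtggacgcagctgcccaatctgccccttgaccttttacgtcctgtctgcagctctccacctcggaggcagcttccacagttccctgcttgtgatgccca
Axl: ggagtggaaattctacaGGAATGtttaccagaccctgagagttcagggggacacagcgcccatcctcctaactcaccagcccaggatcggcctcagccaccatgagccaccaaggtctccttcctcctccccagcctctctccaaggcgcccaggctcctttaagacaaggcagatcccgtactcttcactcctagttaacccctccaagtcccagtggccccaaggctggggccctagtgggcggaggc
In Cyr61 the motif began 103 bases before the start. Ajuba held 2 copies, which began 186 and 164 bases before it, and Axl had 1 copy that began 233 bases before it. Of the members not shown, Amotl2 held it 65 bases before the start and Yap1 141 bases before. Wwtr1 held it 136 or 170 bases before, by the start used, and Ankrd1 210 and 123 bases before. These starts are those of RefSeq. In GENCODE M21 all 250 bases before the start of Ankrd1 are exon bases of Ankrd1 itself. For Amotl2 136 of the 250 are its own exon bases. The matches of Ankrd1 and Amotl2 thus lie inside the genes as GENCODE M21 places them. The only match of Lats2 began 4 bases after the start, so none lay before it, and its other window held none.

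Ctgf (ENSMUSG00000019997, chromosome 10, 24595442 to 24598683, plus strand) encodes a secreted matricellular protein and is among the most used YAP and TAZ targets. In these libraries it was a low transcript, with 108, 91 and 178 reads in ARPC4 ko replicates 1 to 3, against 198, 155 and 238 reads in wt replicates 1 to 3. Scaled for depth these were 5.37, 5.38 and 9.34 CPM in ARPC4 ko, against 8.72, 8.24 and 10.8 CPM in wt. The undated ARPC4 ko library lay above both dated wt libraries, so the groups overlapped, and within the dated libraries both ARPC4 ko values were below both wt values. The log2 fold change was -0.47 (SE 0.27, adjusted p = 0.547, edgeR), with an interval from -1.11 to 0.18. It was -0.68 among the dated libraries (adjusted p = 0.178, edgeR) and -0.21 between the undated ones. The antisense transcript Gm15270 shares 665 exon bases with Ctgf in GENCODE M21. It had 13 reads over all libraries against 968 for Ctgf. The strand option of the counting is not given. At most 13 reads over the shared bases can have been counted for Gm15270. Whether the rest were counted for Ctgf or for neither is not known.

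Cyr61 (ENSMUSG00000028195, chromosome 3, 145646976 to 145649981, minus strand), a close relative of Ctgf and also an immediate early gene, was far more abundant. It was measured at 373.5, 340.0 and 490.1 CPM in ARPC4 ko replicates 1 to 3, against 263.0, 200.6 and 655.3 CPM in wt replicates 1 to 3. The 2 dated ARPC4 ko libraries lay above the 2 dated wt libraries, while the undated ARPC4 ko library lay below the undated wt library. The dated and undated differences therefore had opposite signs, at 0.60 on the log2 scale among the dated libraries (adjusted p = 0.137, edgeR) and -0.42 between the undated ones, and whether they differ was not tested. Over all libraries the log2 fold change was 0.11 (SE 0.44, adjusted p = 0.953, edgeR). Its interval, from -0.94 to 1.15, includes a 2.22-fold rise and a drop to 0.52 of the wt level. The summed immediate early genes ran from 7411 to 9341 CPM in ARPC4 ko and from 6319 to 8026 CPM in wt. The undated library was the lowest of the ARPC4 ko group in that sum and the highest of the wt group, while for Cyr61 it was the highest of both groups. Of the 9 immediate early genes, 9 had a higher mean in ARPC4 ko. For 5 of them every ARPC4 ko library lay above every wt library, as in 11.3% of all genes tested. Both edgeR and DESeq2 called 0 of the 9. The part of these genes in the Cyr61 values was not tested.

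Ankrd1 (ENSMUSG00000024803, chromosome 19, 36111961 to 36120099, minus strand), which encodes a muscle-enriched ankyrin repeat protein and is a frequent target in cultured cells, was at the edge of detection. It had 0, 2 and 1 reads in ARPC4 ko replicates 1 to 3, against 1, 0 and 0 reads in wt replicates 1 to 3. No fold change is given, since both groups were under a floor of 3 reads, which corresponds to between 0.132 and 0.177 CPM in these libraries and covers counting error only. Ankrd1 therefore gave no readout of YAP and TAZ in these libraries.

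Amotl2 (ENSMUSG00000032531, chromosome 9, 102716672 to 102733418, plus strand) encodes an angiomotin-like protein that binds YAP and is itself a target, which makes it part of a negative feedback. Its levels were 213.1, 157.4 and 126.3 CPM in ARPC4 ko replicates 1 to 3, against 200.3, 271.2 and 236.9 CPM in wt replicates 1 to 3. ARPC4 ko replicate 1 overlapped wt replicate 1, and the other ARPC4 ko libraries lay below every wt library. Means were 165.6 ± 44.0 CPM in ARPC4 ko and 236.2 ± 35.5 CPM in wt (SD, n = 3 each). The log2 fold change of -0.51 (SE 0.22, adjusted p = 0.393, edgeR) was the lowest among the 9 members tested, and its interval reached from -1.04 to 0.01. It was -0.38 among the dated libraries and -0.91 between the undated ones. Over 17 alternative settings it ran from -0.74 to -0.38, with adjusted p between 0.156 and 0.701.

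Lats2 (ENSMUSG00000021959, chromosome 14, 57689662 to 57758388, minus strand) encodes a kinase that phosphorylates YAP and TAZ and is a second feedback target. It was measured at 39.9, 36.0 and 31.99 CPM in ARPC4 ko replicates 1 to 3, against 38.9, 46.0 and 34.6 CPM in wt replicates 1 to 3. The groups overlapped, and the log2 fold change was -0.15 (SE 0.15, adjusted p = 0.769, edgeR), which allows a fold between 0.71 and 1.15. GENCODE M21 places a second coding gene, Gm49361, on the same strand with 2955 shared exon bases. Gm49361 has no row in the count files. Lats1, its paralog, stood at 87.8 ± 7.43 CPM in ARPC4 ko and 86.5 ± 7.56 CPM in wt.

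Ajuba (ENSMUSG00000022178, chromosome 14, 54567472 to 54577558, minus strand) encodes a LIM protein of cell junctions that binds LATS kinases. Its levels were 43.7, 43.3 and 73.9 CPM in ARPC4 ko replicates 1 to 3, against 60.7, 30.5 and 89.2 CPM in wt replicates 1 to 3. The undated library was the highest in each genotype and wt replicate 2 the lowest of all, with a 2.93-fold range. The genotype difference was small beside that spread, with a log2 fold change of -0.16 (SE 0.40, adjusted p = 0.915, edgeR). The summed basal keratinocyte markers had the same highest library in wt, replicate 3 at 10159.5 CPM, the same lowest library, wt replicate 2 at 2080 CPM, and the highest ARPC4 ko level, 11707 CPM, in replicate 3. Whether the basal share accounts for the Ajuba values was not tested.

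Axl (ENSMUSG00000002602, chromosome 7, 25757273 to 25788705, minus strand) encodes a receptor tyrosine kinase for the ligand GAS6, and its transcript is raised by YAP in several tumour cell types. It was measured at 31.4, 48.6 and 51.5 CPM in ARPC4 ko replicates 1 to 3, against 26.2, 18.5 and 30.8 CPM in wt replicates 1 to 3. Every ARPC4 ko library lay above every wt library, as in 11.3% of all genes tested, although the lowest ARPC4 ko and the highest wt library were close. Means were 43.8 ± 10.8 CPM in ARPC4 ko and 25.2 ± 6.23 CPM in wt (SD, n = 3 each). On the log2 scale the difference was 0.80 (SE 0.25, 95% interval from 0.19 to 1.40). It had an unadjusted p of 0.0169 and an adjusted p of 0.251 over all genes (edgeR), so it was not called. It was 0.81 among the dated libraries (adjusted p = 0.192, edgeR) and 0.74 between the undated ones. With a covariate for dated against undated titles it was 0.80 with an adjusted p of 0.0704 (edgeR), the closest approach to the threshold of any member in 17 alternative settings, over which the adjusted p of Axl ran up to 0.572. DESeq2 called it when ARPC4 ko replicate 1 was left out (adjusted p = 0.0212) or wt replicate 3 (adjusted p = 0.0353). In all, these refits called 514 and 796 genes, of 21929 and 21909 with any read. DESeq2 did not call Axl when any of the other libraries was left out.

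Axl is also expressed by fibroblasts, macrophages and endothelial cells, and the summed markers of these cells were higher in every ARPC4 ko library than in any wt library. With edgeR 0 of 9 fibroblast, 0 of 9 endothelial and 0 of 6 macrophage markers tested were called, and DESeq2 called 5, 7 and 1 of them as higher. At an unadjusted p under 0.05 edgeR had 8, 9 and 2 as higher, beside 7.98% of all genes tested. The 9 fibroblast markers summed to between 912.2 and 1921 CPM in ARPC4 ko and between 168.0 and 428.8 CPM in wt, and 9 of 9 had a higher mean in ARPC4 ko. Postn, the gene of the matrix protein periostin, made up 1757 of the 1921 CPM in ARPC4 ko replicate 3. Without Postn, a sum made after its values were seen, the other 8 markers came to 561.4, 730.0 and 164.3 CPM in ARPC4 ko replicates 1 to 3, against 53.4, 127.2 and 158.3 CPM in wt replicates 1 to 3. The undated libraries then lay close together, and Col1a1 was lower in ARPC4 ko replicate 3, at 24.4 CPM, than in wt replicates 2 and 3, at 27.1 and 32.4 CPM. The 10 endothelial markers summed to between 15.9 and 27.8 CPM in ARPC4 ko and between 5.96 and 6.39 CPM in wt, with 10 of 10 higher. The 6 macrophage and myeloid markers summed to between 61.9 and 83.6 CPM in ARPC4 ko and between 35.2 and 59.6 CPM in wt, with 6 of 6 higher in mean, while 4 of them (Adgre1, Csf1r, Cd68 and Lyz2) overlapped between the genotypes. Smooth muscle and pericyte markers summed to between 15.3 and 29.0 CPM in ARPC4 ko and between 6.70 and 8.93 CPM in wt. The mean was higher in 6 of 6, although for Cnn1 it rounded to 0.337 CPM in both groups. Cnn1, Tagln and Des overlapped between the genotypes. With edgeR 1 of the 5 markers tested was called as higher, Myh11 (log2 fold change 2.88, adjusted p = 0.0459), and DESeq2 called 2 as higher. Over all genes edgeR called 0.219% and DESeq2 2.69% as higher. Melanocyte markers summed to between 71.7 and 117.9 CPM in ARPC4 ko and between 57.1 and 66.6 CPM in wt. The mean was higher in 4 of 4, while Pmel and Mlana overlapped between the genotypes. No marker of these 5 lists was at 0 in all libraries of a group. The striated muscle sum overlapped between the genotypes, at 4.51 to 40.6 CPM in ARPC4 ko and 4.84 to 9.41 CPM in wt. The part of these cell types in the Axl values was not tested.

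**Figure D2:**
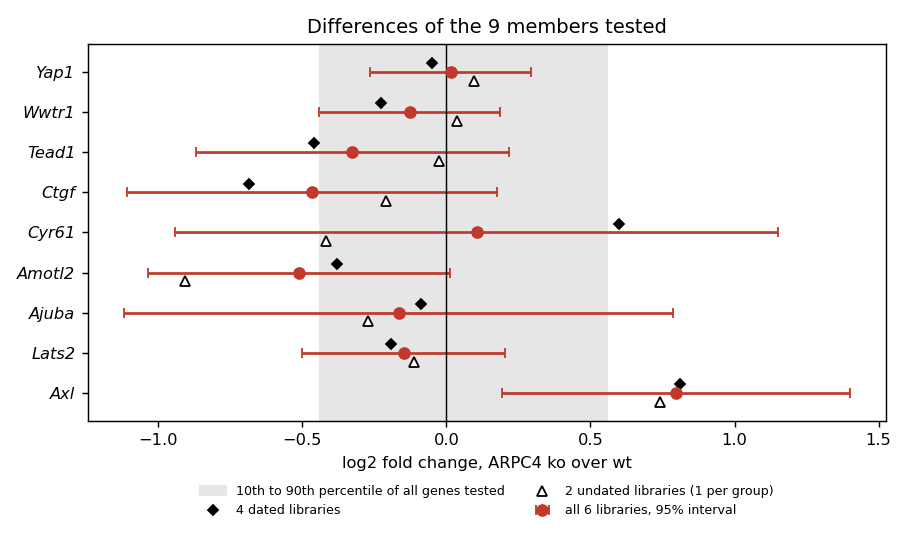
Log2 fold change of ARPC4 ko over wt on the x axis for the 9 members tested, with the 95% interval from all 6 libraries (edgeR). Black diamonds are the 4 dated and open triangles the 2 undated libraries, the grey band holds the 10th to 90th percentile of all genes (-0.44 to 0.56), and Cyr61 is the member whose dated and undated values, 0.60 and -0.42, lie farthest apart.

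Precision differed among the members. The 95% interval lay within a 2-fold change in either direction for 4 of the 9, Yap1, Wwtr1, Tead1 and Lats2. For Ctgf, Cyr61, Amotl2, Ajuba and Axl a 2-fold change was not excluded on at least 1 side. Of the 9 members 3 had values above 0 and 6 below, with a median of -0.15. Over all genes tested 7275 were above 0 and 6429 below, with a median of 0.02.

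The members were compared with each other per kilobase of exon, so that long and short transcripts are on the same scale. Cyr61 had by far the highest level, at 198.7 ± 39.0 CPM per kb in ARPC4 ko and 184.7 ± 122.1 CPM per kb in wt (SD, n = 3 each), and its lowest library lay above the highest library of every other member. Wwtr1, at 31.5 ± 0.831 and 34.4 ± 4.51 CPM per kb in ARPC4 ko and wt, Amotl2, at 26.3 ± 6.99 and 37.6 ± 5.64 CPM per kb in ARPC4 ko and wt, and Yap1, at 27.1 ± 1.41 and 26.9 ± 1.51 CPM per kb in ARPC4 ko and wt, followed. The ranges of Wwtr1 and Amotl2 and those of Amotl2 and Yap1 overlapped over the 6 libraries. Below Yap1, without overlap with it, stood Ajuba, Tead1, Axl and Lats2, each overlapping its neighbour in that order. Ajuba did overlap Amotl2. The highest Ajuba library, wt replicate 3 at 24.5 CPM per kb, was above the lowest Amotl2 library, ARPC4 ko replicate 3 at 20.1 CPM per kb. Ctgf lay below Lats2 without overlap, at 2.34 ± 0.799 CPM per kb in ARPC4 ko and 3.23 ± 0.474 CPM per kb in wt. Its range did overlap that of Axl. The highest Ctgf library, wt replicate 3 at 3.77 CPM per kb, was above the lowest Axl library, wt replicate 2 at 3.68 CPM per kb. The level of Cyr61 and that of Ctgf thus stood far apart in the same libraries, although the genes are close relatives.

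**Figure D3:**
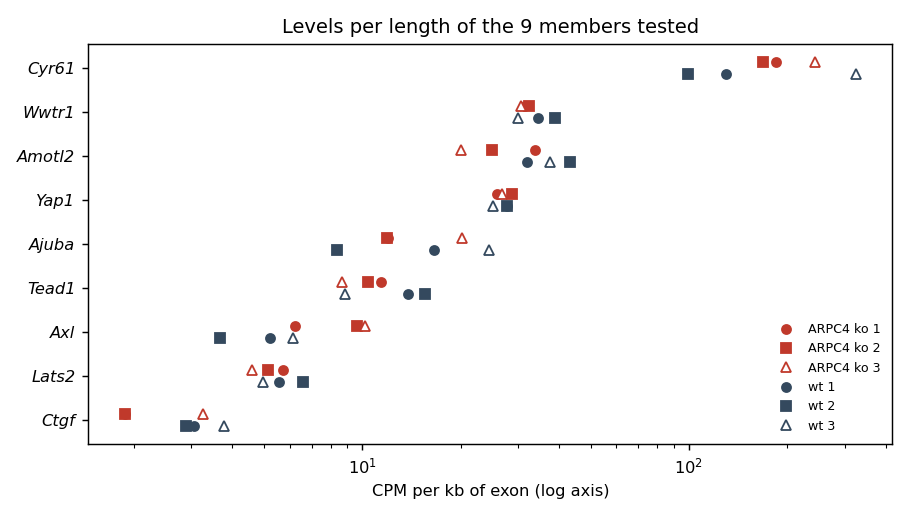
CPM per kb of exon on a log axis for the 9 members tested, ordered by their mean over 6 libraries, with ARPC4 ko in red above wt in grey and the undated libraries as open marks. Cyr61, between 99.3 and 324.5 CPM per kb, stands above all others, and Ctgf, between 1.88 and 3.77 CPM per kb, has the lowest mean.

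The members also varied between the libraries titled with a date and those titled Tryp. In Ctgf, Cyr61 and Ajuba both undated libraries lay above all 4 dated ones, and in Wwtr1, Tead1 and Lats2 both lay below all 4. Over all genes 19.7% had both undated libraries above and 19.7% below. Together 6 of 9 members had the dated and the undated (Tryp) libraries apart, against 39.4% of all genes tested, which is given as a description. The undated and dated libraries averaged 572.7 and 294.2 CPM for Cyr61, 81.5 and 44.5 CPM for Ajuba and 10.1 and 6.93 CPM for Ctgf. They averaged 119.2 and 174.0 CPM for Tead1. Wt replicate 2 was at an end of the range in 7 of 9 members, the highest in Wwtr1, Tead1, Amotl2 and Lats2 and the lowest in Cyr61, Ajuba and Axl. It was also the library with the lowest summed basal markers, 2080 CPM, and proliferation markers, 71.4 CPM. The proliferation markers reached 526.6 CPM in undated ARPC4 ko and 354.2 CPM in undated wt. The date, the Tryp mark and whatever else sets these libraries apart cannot be told apart, and the part of cell makeup in these member values was not tested.

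**Figure D4:**
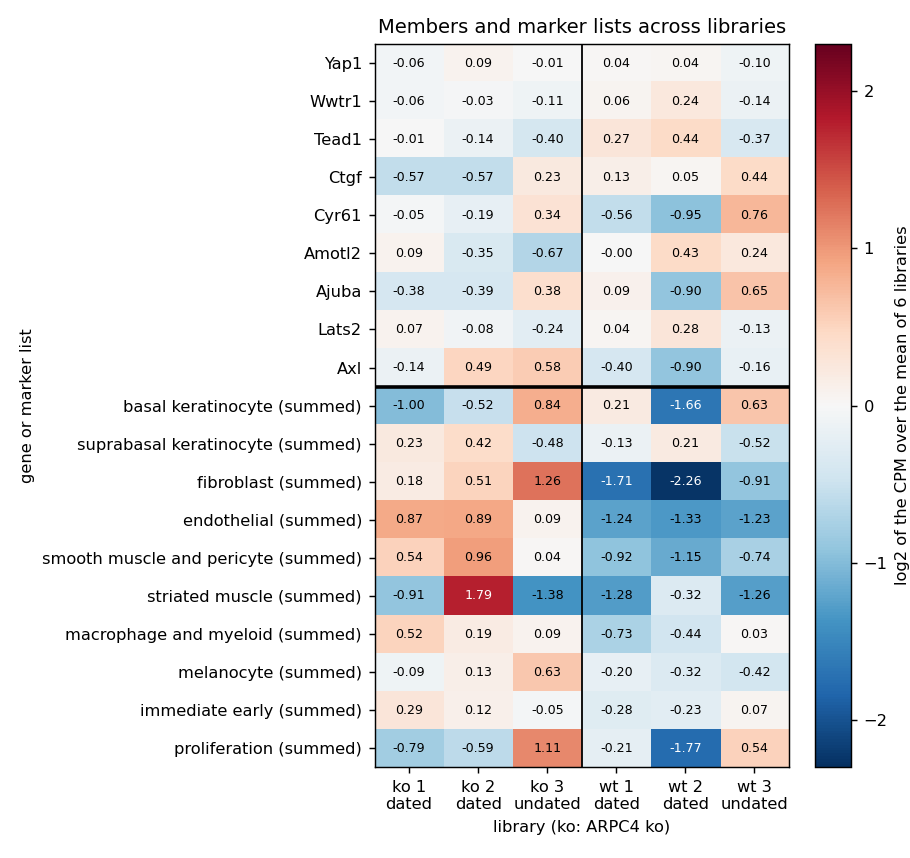
Log2 of each library's CPM over the mean of the 6 libraries, for the 9 members tested (above the line) and for summed marker lists (below it), with ARPC4 ko libraries on the left. Cyr61 and Ajuba are lowest in wt replicate 2 (-0.95 and -0.90), as are basal markers (-1.66), while fibroblast and endothelial sums are above 0 in all 3 ARPC4 ko libraries and below 0 in all 3 wt libraries, with the fibroblast value of ARPC4 ko replicate 3 (1.26) made up mostly of Postn.

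The rest of the pathway was read from 5 lists of 58 genes. Among the 14 core kinases and scaffolds, which carry the signal that restrains YAP and TAZ, 0 passed with edgeR or DESeq2. At an unadjusted p under 0.05 with edgeR 1 was higher, as were 7.98% of all genes tested. That gene was Map4k4, which encodes a kinase that can activate LATS in parallel to MST1 and MST2. It stood at 227.3 ± 24.5 CPM in ARPC4 ko and 167.0 ± 15.8 CPM in wt (log2 fold change 0.44, SE 0.14, adjusted p = 0.241, edgeR). For Map4k4, as for 11.3% of all genes tested, every ARPC4 ko library lay above every wt library. With a covariate for dated against undated titles it was called (0.45, adjusted p = 0.0472, edgeR), in a fit that called 5.17% of all genes, 3.2% as higher and 1.98% as lower. Nf2, the gene of the scaffold merlin, stood at 92.6 ± 7.75 CPM in ARPC4 ko and 77.7 ± 4.82 CPM in wt (0.25, adjusted p = 0.415, edgeR). Sav1, the MST scaffold, had a log2 fold change of 0.31 (adjusted p = 0.584, edgeR). The median of the list was 0.06.

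Of the 8 other TEADs and cofactors 6 were tested, and both edgeR and DESeq2 called 0. None had an unadjusted p under 0.05 (median -0.16). The TEAD competitors of the vestigial-like family were Vgll3, at 123.3 ± 21.8 CPM in ARPC4 ko and 147.4 ± 56.3 CPM in wt, and Vgll4, with a log2 fold change of 0.16 (adjusted p = 0.788, edgeR). Vgll1 had 1 read over all libraries and Vgll2 had 0. Wbp2, a coactivator that binds YAP, had a log2 fold change of -0.32 (adjusted p = 0.543, edgeR). Among 13 junction and polarity regulators 0 passed with edgeR or DESeq2 (median 0.09). At an unadjusted p under 0.05 with edgeR 1 was lower, as were 5.25% of all genes tested. This was Ptpn14, a phosphatase that binds YAP and is also in the target signature. It stood at 163.5 ± 11.2 CPM in ARPC4 ko and 213.0 ± 27.3 CPM in wt (-0.38, SE 0.14, adjusted p = 0.313, edgeR), with every ARPC4 ko library below every wt library, as in 8.03% of all genes. The atypical cadherins Dchs1 and Fat4, a ligand and receptor pair, were both under 5 CPM, with log2 fold changes of 1.43 (adjusted p = 0.402) and 1.01 (adjusted p = 0.448, edgeR).

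The commonly used YAP and TAZ target signature holds 16 genes beyond the members, of which 15 were tested. With edgeR 0 passed (median -0.05). An unadjusted p under 0.05 was reached by 3 on the higher side, Asap1, Nuak2 and Gadd45a, and by 1 on the lower side, Ptpn14 as above, where 7.98% and 5.25% of all genes did. Asap1, an Arf GTPase-activating protein that acts on the actin cytoskeleton, stood at 31.8 ± 3.03 CPM in ARPC4 ko and 16.6 ± 4.61 CPM in wt. For Asap1, as for 11.3% of all genes tested, every ARPC4 ko library lay above every wt library. Its log2 fold change of 0.94 (SE 0.22) had an adjusted p of 0.140 with edgeR and 0.00976 with DESeq2, which called 4.03% of the genes it adjusted. Over 17 alternative settings that p ran from 0.00976 to 0.475. Nuak2, a kinase of the AMPK family, had a log2 fold change of 0.35 (adjusted p = 0.339, edgeR), and Gadd45a, a DNA damage response gene, 0.47 (adjusted p = 0.348, edgeR). Gadd45a was named after its values were seen.

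Among 8 other widely used readouts 0 passed with edgeR and 1 was called by DESeq2 (median 0.09). This was Areg, the gene of the EGF receptor ligand amphiregulin. It was measured at 31.4, 36.1 and 52.2 CPM in ARPC4 ko replicates 1 to 3, against 15.5, 16.5 and 17.6 CPM in wt replicates 1 to 3. The groups did not overlap, with every ARPC4 ko library higher, as in 11.3% of all genes tested. The log2 fold change of 1.27 (SE 0.20) had an adjusted p of 0.0783 with edgeR and of 9.79e-05 with DESeq2. It was called by edgeR with the same covariate (1.24, adjusted p = 0.00911) and among the dated libraries alone (1.04, adjusted p = 0.0325), where 1.64% of genes were called, 1.16% as higher and 0.485% as lower. Over 17 alternative settings its adjusted p ran from 9.79e-05 to 0.378. Edn1, the gene of endothelin-1, had a log2 fold change of -0.29 (adjusted p = 0.710, edgeR).

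**Figure D5:**
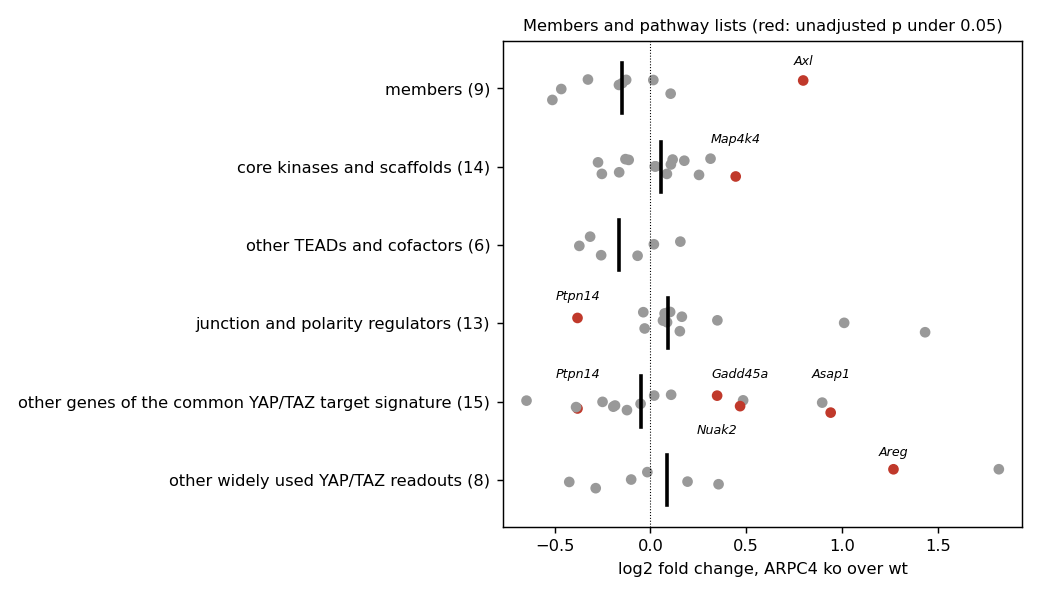
Log2 fold change of ARPC4 ko over wt (x axis) for the members and the 5 pathway lists, with the number tested in brackets, 1 point per gene and a black bar at each median. Red points have an unadjusted p under 0.05 (edgeR), none of these genes passed the adjusted threshold, and the list medians lie between -0.16 and 0.09 over all 6 libraries. Without wt replicate 3 the median was 0.35 for the signature and 0.59 for the other readouts, and without ARPC4 ko replicate 3 it was -0.36 for the other readouts.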

How the data were processed

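Per the labels' protocols, TRIzol RNA from trypsinised skin was made into TruSeq Stranded mRNA libraries and read as 51 bp single ends. The deposited values are raw counts per Ensembl gene. HTSeq, TopHat2 2.0.12 and Bowtie 1.1 are listed as tools and mm10 as build, per the submitters' processing notes; the strand option and the annotation release are not stated there. Reads not assigned to a gene, of which those with more than 1 alignment made up 32.4 to 40.9% of all reads listed, stayed out of library sizes and tests. A gene name table gave symbols for 40254 identifiers. Coordinates and exon lengths came from GENCODE M21 on GRCm38, the assembly of mm10.

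Genes were kept by filterByExpr, scaled by TMM and tested with edgeR 4.0.16 in R 4.3.3 (glmQLFit, robust, legacy off; glmQLFTest; group only), with Benjamini-Hochberg adjustment over all 13704 genes and a threshold of 0.05. The SE is the log2 fold change over the root of F. Alternatives were other scalings and filters, DESeq2 1.42.0, limma-voom (limma 3.58.1), a replicate block, a covariate for dated or undated (Tryp) titles (called the date covariate), the dated libraries alone and leaving out each library; refits of DESeq2 without each library and the fibroblast sum without Postn were added after seeing the data. Genotype and replicate marks in the titles (I, II, Tryp) set groups and numbers. Same-numbered libraries deviated together in only some pairs, so the numbers were not taken as pairs. The rule named all members and, of each pathway list, the 3 genes with the smallest p and any gene past the threshold. Lats1, Tead2, Tead3 and the Vgll genes were added as paralogs or family members, outside that rule and with their values seen. 1 gene that the rule names is not reported here. The members, lists and tests were chosen with earlier results of these data known.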

Additional observations from a re-analysis of the deposited data

How the results depend on the processing

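With edgeR, limma-voom or DESeq2, 0 of 9 members were called under each of 17 alternative settings, and Wwtr1, Tead1, Ctgf, Amotl2, Lats2 and Axl kept their direction in all of them. The sign of Yap1 turned with DESeq2 size factors (-0.0040), upper quartile scaling (-0.0018), total counts (-0.018), DESeq2 (-0.010) and the dated libraries alone (-0.050). Without 1 library each, Yap1 ran from -0.047 to 0.047, Cyr61 from -0.20 to 0.78 and Ajuba from -0.50 to 0.23. The refits with DESeq2 without 1 library called 0 to 2 members, with 2 (Cyr61 at 0.76 and Axl at 0.94) without wt replicate 3 and 1 (Axl at 0.98) without ARPC4 ko replicate 1.

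The count over all genes, 30, was 18 with at least 1 CPM in 3 libraries, 57 with no filter, 18 with the older quasi-likelihood fit, 637 with DESeq2 (426 higher), 709 with the date covariate (438 higher), 227 in the dated libraries and 0 with limma-voom (1735 at an unadjusted p under 0.05). Without 1 library it ran from 0 to 64 with edgeR and with DESeq2 was 514, 300 and 444 without ARPC4 ko replicates 1, 2 and 3 and 233, 382 and 796 without wt replicates 1, 2 and 3. It was 0 without wt replicate 1, 2 or 3 or without ARPC4 ko replicate 2, with 1229 to 2350 genes below 0.05 before adjustment, and 64 without ARPC4 ko replicate 3. The replicate block called 354 genes and 0 members. Same-numbered libraries correlated at -0.19, 0.47 and 0.67 in their deviations from group means, and ARPC4 ko replicate 1 correlated best with wt replicate 2.

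In the pathway lists, where edgeR called 0, the date covariate called 1 core kinase (Map4k4), 1 signature gene (Asap1) and 1 other readout (Areg). DESeq2 called 1 signature gene (Asap1) and 1 other readout (Areg), and the dated libraries and the replicate block each called 1 other readout (Areg). Leaving out 1 library called 0 in every list with edgeR, while DESeq2 then also called Ptpn14 (without wt replicate 3) and Dchs1 (without ARPC4 ko replicate 3). The median of the other readouts, 0.09, was -0.36 without ARPC4 ko replicate 3 and 0.59 without wt replicate 3, that of the signature, -0.05, was 0.35 without wt replicate 3, and that of the junction and polarity regulators, 0.09, was 0.17 without wt replicate 2 and 0.01 without wt replicate 3. The causes were not tested. Ankrd1, under the floor of 3 reads in every library, gave no comparison at this depth.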
